A study of Mus musculus with 5 samples.

Results

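The genes described here were lower in each of the 8 h libraries than in both 1 h libraries of cultured neural stem and precursor cells from the mouse subventricular zone. They were chosen by their own TPM (a gene's share of the transcripts of a library, corrected for its length), with no use of a test. A gene was taken if its mean TPM over the 5 libraries was at least 5 and its lowest 1 h TPM was at least 1.4 times its highest 8 h TPM. Genes named with Gm numbers, Mir numbers or Rik clone names were left out, as were Ctgf, Thbs1, Id1, Id3, Id4, Per1, Per2, Ciart and Nfkbia. The rule found 28 of 10254 genes that met the floor of expression and the rule on names (0.273%), out of 46078 genes listed. Since the 8 h and 1 h values chose the genes, their difference between the groups is a description, and no test of it is given.

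The study exposed neural precursor cells to hydrogen peroxide or to PBS as a sham, and the 5 libraries used here are sham controls. The cells came from C57BL/6 mice with no mutation, labelled female and 5 to 8 weeks old, and were kept on plates coated with poly-D-lysine. RNA was taken 1 h after the start of the sham exposure in 2 libraries (replicates 1 and 2) and 8 h after it in 3 libraries (replicates 13, 14 and 15). The study's methods give another age for the animals and write the strain as C57BL/6j. They count each animal as a biological replicate of subventricular zone cells, but do not say which animal gave which library. These are bulk libraries, in which fewer cells of a type and less RNA per cell cannot be told apart.

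Some libraries went against their labels. Xist, which is transcribed from the inactive X chromosome of females, was listed at 0.0285 to 0.0611 TPM in both 1 h libraries and in 8 h replicate 14, and the summed TPM of 4 Y-linked genes was 138 to 181 there. In 8 h replicates 13 and 15, Xist stood at 165 and 200 TPM and the Y-linked sum at 0.0253 and 0. The library identifiers split in the same way, into a first series (both 1 h libraries and 8 h replicate 14) and a second series (8 h replicates 13 and 15). Mitochondrially encoded genes took 10.7 to 11.1% of TPM in the first series and 6.23 and 6.30% in the second. The part of these differences in the results was not tested, and ratios within the first series alone are given for the genes that the text describes by their ratio. The count table summed to between 13988166 and 18572154 reads per column. Astrocyte markers summed to 8596 to 11582 TPM and neural stem cell markers to 3202 to 3732 TPM over the 5 libraries. Most of the astrocyte sum was Fabp7, at 7679 to 10076 TPM. Gfap was at 4.35 and 4.15 TPM at 1 h and at 26.0, 1.81 and 47.2 TPM in 8 h replicates 13, 14 and 15, and so split by series. Aqp4, Slc1a2, Slc1a3, Aldh1l1 and Fabp7 were also highest in the second series, whereas Fgfr3 was lowest there and S100b did not split. Markers of the oligodendrocyte lineage summed to 1639 to 2461 TPM, those of neurons and neuroblasts to 218 to 472 TPM and those of endothelium to 11.8 to 15.4 TPM, with overlap between 1 h and 8 h in each. Markers of pericytes and fibroblasts summed to at most 1.75 TPM. The ependymal sum was lower in every 8 h library, at 26.2 and 31.0 TPM against 25.6, 19.3 and 19.7 TPM in replicates 13, 14 and 15. Most of it was Foxj1, and Tmem212 was at 0 in each library. The microglial sum was lower too, at 1.49 and 1.31 TPM against 0.523, 0.478 and 0.740 TPM, with Aif1 and Tmem119 at 0 in each library. Most of it was P2ry12 alone, at 1.41 and 1.29 TPM against 0.488, 0.411 and 0.569 TPM. Csf1r and Itgam overlapped between the groups at no more than 0.0653 TPM, and Cx3cr1 was above 0 only in 8 h replicate 15. None of the 28 genes was in a marker list, and the part of these cells in the results was not tested.

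Several of the 28 genes are known as inducible regulators. Immediate early genes are switched on soon after a stimulus such as a growth factor, a change of medium or stress, without new protein synthesis, and many of their mRNAs are short-lived. The co-activator YAP, bound to TEAD factors on DNA, drives genes such as Cyr61 and Amotl2 in cells that spread on a stiff surface, and Notch ligands such as Dll1 signal between neighbouring precursor cells in the neurogenic niche.

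The sequences before the start sites of 6 of the genes are shown as examples, each with a motif searched for. Other genes with a TEAD or E-box match are named below. They were read from RefSeq (GRCm38.p6), which gave 25 promoter windows for 22 of the 28 genes. Each is the 250 bases before the annotated start, 5′ to 3′ on the strand of the gene. Amotl2 (chr9:102717554-102717803, plus strand) and Cyr61 (chr3:145649986-145650235, minus strand) are printed with a match to the TEAD motif GGAATG in capitals, which stands on the other strand in both and so reads CATTCC. It began 65 bases before the start in Amotl2 and 103 bases before it in Cyr61. In Ppp1r15a (chr7:45526269-45526518, minus strand) the capitals mark the cyclic AMP response element TGACGTCA, 12 bases before the start. In Ecm1 (chr3:95739570-95739819, minus strand) they mark the AP-1 motif TGACTCA, read on the other strand, 64 bases before the start. In Klf4 (chr4:55532476-55532725, minus strand) and Mafk (chr5:139791286-139791535, plus strand) they mark the E-box CACGTG, 182 and 208 bases before the start.
Amotl2: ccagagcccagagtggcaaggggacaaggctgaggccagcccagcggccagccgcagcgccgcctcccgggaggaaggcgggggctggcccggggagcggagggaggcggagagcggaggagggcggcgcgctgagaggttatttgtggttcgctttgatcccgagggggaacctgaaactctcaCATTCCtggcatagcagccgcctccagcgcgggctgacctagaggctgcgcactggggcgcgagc
Cyr61: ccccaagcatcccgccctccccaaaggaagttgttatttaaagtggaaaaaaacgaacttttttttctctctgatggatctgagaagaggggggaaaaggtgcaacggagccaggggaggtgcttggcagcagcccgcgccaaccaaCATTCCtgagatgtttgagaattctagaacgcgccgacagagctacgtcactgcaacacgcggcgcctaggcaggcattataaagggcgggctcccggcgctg
Ppp1r15a: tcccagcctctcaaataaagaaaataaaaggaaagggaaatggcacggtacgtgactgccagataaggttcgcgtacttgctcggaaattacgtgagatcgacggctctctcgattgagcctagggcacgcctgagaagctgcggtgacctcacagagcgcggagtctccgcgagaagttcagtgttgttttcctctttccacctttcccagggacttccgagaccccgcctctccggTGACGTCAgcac
Ecm1: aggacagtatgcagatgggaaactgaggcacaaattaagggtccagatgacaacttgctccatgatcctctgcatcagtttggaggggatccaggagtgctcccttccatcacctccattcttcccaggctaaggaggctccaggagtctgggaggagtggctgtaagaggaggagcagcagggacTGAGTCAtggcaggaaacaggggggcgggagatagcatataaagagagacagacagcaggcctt
Klf4: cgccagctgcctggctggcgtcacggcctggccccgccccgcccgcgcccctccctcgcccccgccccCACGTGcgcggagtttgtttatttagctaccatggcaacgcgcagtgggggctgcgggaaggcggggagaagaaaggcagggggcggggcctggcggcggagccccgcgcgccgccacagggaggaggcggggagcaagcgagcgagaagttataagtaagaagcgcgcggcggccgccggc
Mafk: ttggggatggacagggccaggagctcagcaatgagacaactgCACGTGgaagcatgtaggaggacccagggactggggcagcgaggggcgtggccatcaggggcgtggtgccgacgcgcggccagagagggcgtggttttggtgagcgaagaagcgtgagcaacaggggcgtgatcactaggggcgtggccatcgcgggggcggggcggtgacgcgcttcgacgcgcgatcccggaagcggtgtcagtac

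Over both strands of the 300-base windows, which also hold 50 bases after the start, the TEAD motif was in 4 of the 22 genes (Amotl2, Arvcf, Cyr61 and Pttg1ip) and in 14.7% of all 32851 promoter windows. The E-box was in 4 genes (Abca1, Klf4, Mafk and Stx6) and in 7.15% of all windows. The AP-1 motif and the cyclic AMP response element were in 1 gene each, against 5.20% and 1.79% of all windows. Windows of protein-coding genes whose mean TPM was 5 or more held the TEAD motif in 11.5%, the E-box in 10.1%, the AP-1 motif in 3.30% and the cyclic AMP response element in 3.28%. GGGCGG, which SP and KLF factors bind, was in 16 of the 22 genes and in 35.7% of all windows, but in 65.7% of the windows of those expressed genes. CAGACAG, a SMAD motif, was in 3 genes (7.73% of all windows and 6.24% of those of expressed genes) and GGCGCC, an element of BMP targets, in 4 (11.9% and 22.6%). The CArG box, the D-box TTATGTAA and the NF-kappaB motif had no match in these windows, against 1.63%, 0.938% and 4.51% of all windows. The printed TEAD, AP-1, E-box and cyclic AMP matches did not overlap each other.

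Summed over the 28 genes, TPM was 1082 and 1061 in the 1 h libraries and 555, 621 and 543 in 8 h replicates 13, 14 and 15. The mean 1 h TPM of a gene was between 1.55 and 3.97 times its mean 8 h TPM, with a median of 1.87. The lowest 1 h over highest 8 h ratio, which the rule used, ran from 1.402 (Dst) to 2.43 (Snord34), and the plot of TPM by library shows the gap in each gene. Over all 10254 genes, 904 were lower in every 8 h library than in both 1 h libraries without any minimum ratio (8.82%), while 2620 were higher (25.6%). The median log2 of 8 h over 1 h was 0.11 over those genes. In the limma fits described below the median was 0.102. It was -0.00453 after median-ratio scaling of the libraries and 0.0136 with the first series alone. The slight rise of the middle gene was thus smaller in the first series, which holds only replicate 14 at 8 h. Median-ratio scaling brings the middle gene near 0 by its design, so nothing is read from the scaled value. The shares of genes lower and higher, here and below, are from TPM without such scaling. The same rule turned round, with the lowest 8 h TPM at least 1.4 times the highest 1 h TPM, found 94 genes.

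**Figure D1:**
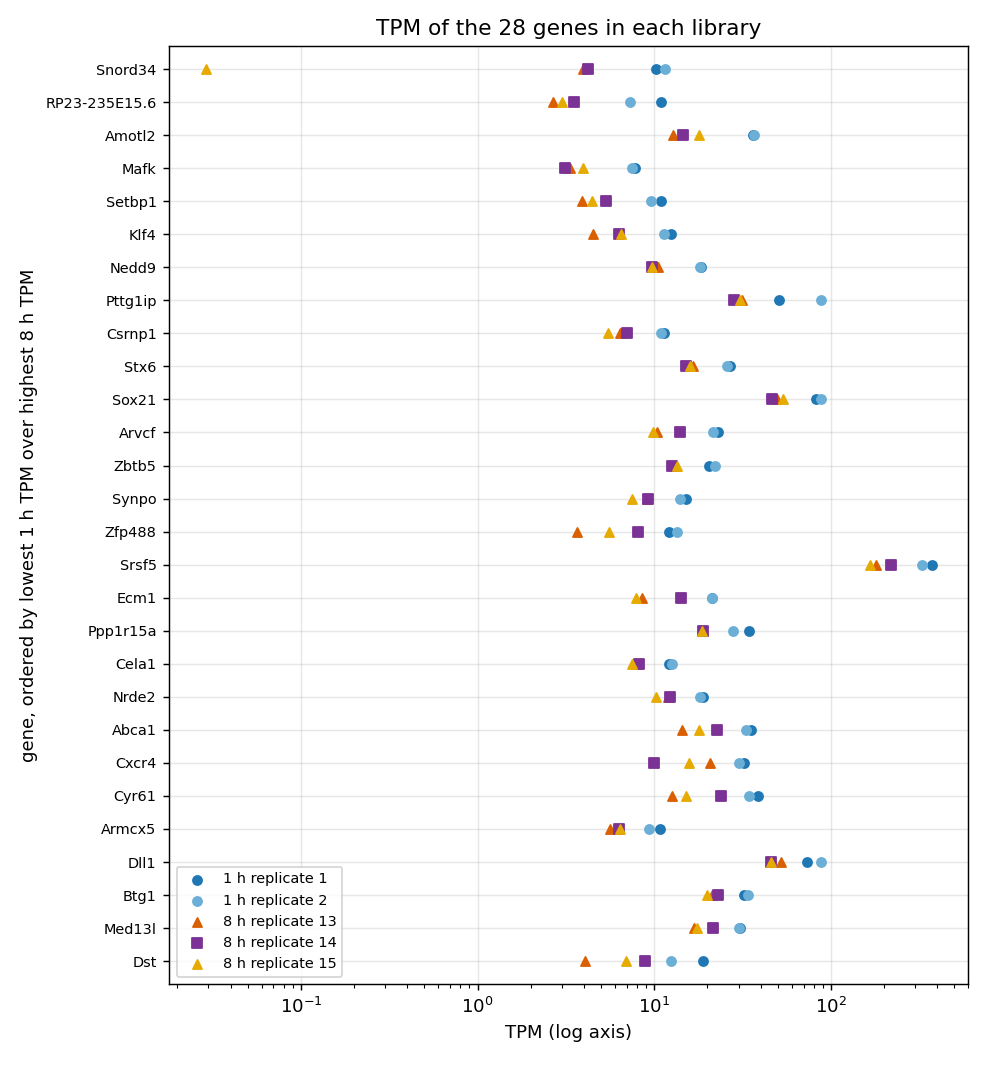
TPM of the 28 genes in each of the 5 libraries, on a log axis, with genes ordered by the ratio that chose them. Circles are 1 h libraries, the square is 8 h replicate 14 and triangles are 8 h replicates 13 and 15; in each row the circles lie to the right of the other symbols, and Snord34 in 8 h replicate 15 lies far to the left at 0.0289 TPM.

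Each of the 10 ways of naming 2 of the 5 libraries as the high pair was also put through the rule, as a count with no p-value. At least 28 genes were found for 2 of the 10 pairs. One was the 1 h pair itself with 28 genes, and the other was the pair of 8 h replicates 13 and 15, the second identifier series, with 735 genes. The other 8 pairs gave 3 to 17 genes.

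Genes of the YAP-TEAD and SRF list, which are linked to cell shape and actin, had 2 of the 28 among 31 measured. Amotl2, a junction protein of the angiomotin family that binds YAP, was at 36.3 and 36.5 TPM in the 1 h libraries. In 8 h replicates 13, 14 and 15 it was at 12.8, 14.6 and 18.0 TPM. The 1 h libraries thus lay close together and the mean 1 h TPM was 2.40 times the mean 8 h TPM (36.4 ± 0.134, SD, n = 2, against 15.1 ± 2.62, n = 3), and 2.49 times that of 8 h replicate 14. Cyr61, a secreted matrix-associated protein, was at 38.7 and 34.4 TPM at 1 h and at 12.5, 23.8 and 15.2 TPM in 8 h replicates 13, 14 and 15. Here 8 h replicate 14 stood between the other 8 h libraries and the 1 h libraries, and the mean ratio was 2.13, or 1.54 within the first series. Ctgf and Thbs1, known targets of the same co-activator, met both thresholds but were left out by name and are not in the list. Thbs1, a matrix glycoprotein, was at 10.03 and 9.59 TPM and then at 2.52, 1.36 and 2.45 TPM. Over the whole list the median log2 of 8 h over 1 h was -0.00045. In all, 4 of the 31 genes (with Crim1 and Mkl1) were lower in every 8 h library, 5 were higher (Myh9, Tagln2, Arhgef17, Actg1 and Myl9), and 22 overlapped between groups, against 8.82% lower and 25.6% higher over all 10254 genes.

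Immediate early and stress-induced genes gave 4 of the 28 among 35 measured. Mafk, a small MAF protein that pairs with NRF2 and BACH factors, was at 7.83 and 7.45 TPM at 1 h and at 3.35, 3.14 and 3.94 TPM at 8 h, in the order of replicates 13, 14 and 15 that is kept below. Csrnp1, a nuclear protein rich in cysteine and serine, was at 11.4 and 11.0 TPM and then at 6.39, 6.97 and 5.48 TPM. The groups did not overlap in either gene, and the mean ratios were 2.20 and 1.78, or 2.44 and 1.60 within the first series. Ppp1r15a (GADD34), the subunit that directs protein phosphatase 1 to eIF2alpha and so ends the block of translation under stress, was at 34.5 and 27.9 TPM and then at 18.8, 18.8 and 18.6 TPM. Its 3 values at 8 h were within 1.01 times of each other, the narrowest range of the 28 genes. Btg1, an antiproliferative partner of mRNA deadenylases, was at 32.2 and 33.9 TPM and then at 21.2, 22.8 and 19.9 TPM, with the smallest mean ratio of the 28 genes at 1.55, or 1.45 within the first series. These 4 genes stood beside others of the list that went the other way. In all, 8 of the 35 were lower in every 8 h library, among them Ier5 and Dusp5, and 5 were higher (Ier3, Btg2, Myc, Arc and Fosl2). The remaining 22 overlapped, and the background over all genes is again 8.82% lower and 25.6% higher. Fos was at 31.0 and 35.7 TPM at 1 h and at 56.0, 22.9 and 70.0 TPM at 8 h, so its order depended on the identifier series.

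Klf4, Sox21, Zfp488 and Zbtb5 encode transcription factors. Klf4, a zinc finger factor best known as a pluripotency factor, was at 12.5 and 11.3 TPM at 1 h and at 4.49, 6.34 and 6.44 TPM at 8 h, with a mean ratio of 2.07, or 1.88 within the first series. It was the only Kruppel-like factor of 10 measured that the rule took. Klf6 was also lower in every 8 h library by a smaller margin (ratio of lowest to highest 1.05). Klf9 and Klf10 were higher, Klf10 at 29.6 and 30.7 TPM against 99.9, 66.9 and 86.4 TPM. All genes had 8.82% lower and 25.6% higher. Sox21, a SOX factor of neural precursors, was the second most abundant of the 28 genes in the mean, at 82.3 and 87.4 TPM and then at 49.2, 46.3 and 53.4 TPM. Sox2, the stem cell factor of the same family, overlapped between the groups (211 and 228 TPM against 181, 220 and 218 TPM).

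Zfp488, a zinc finger factor of the oligodendrocyte lineage, was at 12.1 and 13.5 TPM at 1 h and at 3.68, 8.10 and 5.55 TPM at 8 h. Its 8 h libraries differed by 2.20 times, so the size of its ratio was not well defined. Of 258 measured genes named Zfp it was the only member, and 123 of them were higher in every 8 h library against 20 lower, where all genes had 25.6% higher and 8.82% lower. Zbtb5, a zinc finger repressor with a BTB domain, was at 20.5 and 22.0 TPM and then at 13.3, 12.5 and 13.5 TPM. Setbp1, which binds the SET protein, was at 10.9 and 9.56 TPM and then at 3.92, 5.32 and 4.44 TPM. A second gene identifier with the Setbp1 name overlaps it on the same strand and was at 1.21 and 1.02 TPM at 1 h and 0.547 to 2.01 TPM at 8 h, so reads of this locus could be divided between the identifiers. Med13l, a subunit of the kinase module of Mediator, was just inside the threshold at 30.6 and 30.0 TPM and then at 16.7, 21.4 and 17.4 TPM.

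Srsf5, Nrde2 and a small nucleolar RNA, described further on, act in RNA processing. Srsf5, an SR protein of the spliceosome, was the most abundant of the 28 genes, at 374 and 326 TPM at 1 h and at 179, 218 and 166 TPM at 8 h (350.1 ± 33.7, SD, n = 2, against 188 ± 26.9, n = 3). It thereby accounted for the largest single part of the difference in summed TPM. None of the 9 other SR factors measured met the rule. Srsf6 was lower in every 8 h library at a ratio of 1.05, Srsf1 and Srsf7 were higher and 6 overlapped. The shares over all genes were 8.82% lower and 25.6% higher. Nrde2, a nuclear RNA surveillance protein, was at 18.9 and 18.1 TPM and then at 12.02, 12.3 and 10.2 TPM.

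Signalling genes at the cell surface were Dll1, Cxcr4 and, through its scaffold function, Nedd9. Dll1, a ligand of Notch receptors, was at 73.1 and 87.3 TPM at 1 h and at 51.8, 46.0 and 45.8 TPM at 8 h, with a mean ratio of 1.68, or 1.74 within the first series. The Notch list of 16 measured genes had 4 lower in every 8 h library (Dll1, Hes5, Hey1 and Maml2), 4 higher (Jag1, Notch1, Rbpj and Maml1) and 8 that overlapped, beside 8.82% lower and 25.6% higher over all genes. Hes5, the Notch target that came nearest to the rule, was at 13.0 and 24.6 TPM and then at 6.88, 7.15 and 9.57 TPM, a ratio of lowest to highest of 1.35. The other ligand Jag1 was higher, at 16.6 and 14.4 TPM against 18.4, 23.9 and 20.8 TPM. Cxcr4, the receptor of the chemokine CXCL12 and a guide of precursor migration, was at 32.4 and 30.2 TPM and then at 20.6, 10.02 and 15.8 TPM. It was lowest in 8 h replicate 14, the library of the first series, where the mean 1 h TPM was 3.12 times the 8 h TPM. Nedd9, a scaffold of the CAS family at focal adhesions and listed here with glucocorticoid targets, was at 18.4 and 18.2 TPM and then at 10.5, 9.71 and 9.69 TPM. In the list of 13 measured glucocorticoid targets, Sgk1 and Errfi1 were also lower in every 8 h library, and Klf9, Tsc22d3 and the receptor gene Nr3c1 were higher, beside the same background.

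The list of extracellular matrix and adhesion genes held none of the 28 among 46 measured, with 4 lower in every 8 h library, 10 higher and 32 that overlapped. As written, however, that list left out Cyr61 and Ecm1, which are among the 28 and encode secreted proteins of the matrix. Its lack of members thus does not speak for all matrix genes. Abca1, the transporter that exports cholesterol to apolipoproteins, was at 35.2 and 33.1 TPM at 1 h and at 14.3, 22.6 and 18.0 TPM at 8 h. It was the only gene of 23 measured in the list of cholesterol genes and SREBP targets that was lower in every 8 h library, while 10 were higher (8.82% lower and 25.6% higher over all genes) and the list median was 0.92 on the log2 scale. Stx6, a SNARE of the trans-Golgi network and endosomes, was at 26.7 and 25.8 TPM and then at 16.5, 15.0 and 15.9 TPM. Pttg1ip, a membrane protein that binds securin, was at 51.1 and 88.1 TPM and then at 31.2, 28.3 and 30.5 TPM, and its 1 h libraries differed from each other by 1.72 times, the widest 1 h range of the 28 genes. Arvcf, a catenin of the p120 family that binds cadherins, was at 22.9 and 21.5 TPM and then at 10.4, 14.0 and 9.87 TPM. Ecm1, a secreted matrix glycoprotein, was at 21.2 TPM in both 1 h libraries and at 8.58, 14.3 and 7.92 TPM at 8 h, where replicate 14 lay between the other 8 h libraries and the 1 h libraries as in Cyr61. Synpo, an actin-associated protein, Cela1, of the elastase family, and Armcx5 ranged from 9.28 to 15.1 TPM at 1 h and from 5.64 to 9.21 TPM at 8 h.

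The ratio rested on less in 5 genes that lie within, or overlap, another expressed gene on the same strand, where reads may be divided between the 2 identifiers. Snord34, a small nucleolar RNA of 70 bases (chr7:45126601-45126670), lies inside Rpl13a, which was at 1298 to 1533 TPM. It was at 10.2 and 11.5 TPM at 1 h and at 3.96, 4.21 and 0.0289 TPM at 8 h, and so had the largest ratio of the 28 genes on the smallest feature. The sense-intronic RNA ENSMUSG00000106099, shown in the plots by its clone name (chr3:119743208-119746446) lies in Ptbp2, a splicing factor at 117 to 124 TPM at 1 h and 80.4 to 111 TPM at 8 h. It was at 10.9 and 7.29 TPM and then at 2.68, 3.52 and 2.99 TPM. The Dst entry is a second identifier inside the main gene of dystonin, a linker of the cytoskeleton. It was at 19.0 and 12.4 TPM and then at 4.05, 8.83 and 6.92 TPM, whereas the main identifier was at 44.0 and 64.7 TPM and then at 31.4, 69.7 and 34.6 TPM and overlapped between groups. Armcx5 shares its span with Gprasp1, and the fifth gene was Setbp1, described above. On the opposite strand, Sox21 overlaps Gm4675, and the libraries were stranded.

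Genes just inside the threshold of 1.4 were Dst, Med13l, Btg1, Dll1 and Armcx5, with ratios of 1.402 to 1.45. Just outside it were Pip5k1c, Rusc2, mt-Ti, Pja1 and Cirbp, with ratios of 1.36 to 1.39. Cirbp, a cold-inducible RNA-binding protein, was at 71.3 and 74.6 TPM and then at 51.4, 42.4 and 51.2 TPM, so it differed little from the last genes taken. Under the floor of expression, 7 genes with a mean TPM between 4.15 and 4.93 met the ratio, among them the immediate early gene Atf3 and the clock gene Per3. A further 10 genes met both thresholds and were left out by their names. The largest ratio among these was that of Ctgf, a relative of Cyr61, at 18.8 and 17.6 TPM and then at 2.65, 3.54 and 2.74 TPM.

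Within the 8 h group the libraries were not alike. In 16 of the 28 genes 8 h replicate 14 had the highest 8 h TPM (57.1%), against 26.0% of all 10254 genes. The rule used these values, so nothing is read from this share. The mean 1 h TPM was 1.42 to 3.12 times that of 8 h replicate 14, with a median of 1.68, and 1.58 to 5.43 times the mean of 8 h replicates 13 and 15, with a median of 1.95. With the first series alone, 1 h replicates 1 and 2 against 8 h replicate 14, the rule found 167 genes, all 28 among them, a property that the rule on all libraries fixes. Without 8 h replicate 14 it found 242 genes. In Cxcr4, Amotl2, Mafk and Pttg1ip, for example, the ratio was larger to 8 h replicate 14 than to the other 8 h libraries, and in Ecm1, Cyr61, Zfp488 and Dst it was smaller.

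**Figure D2:**
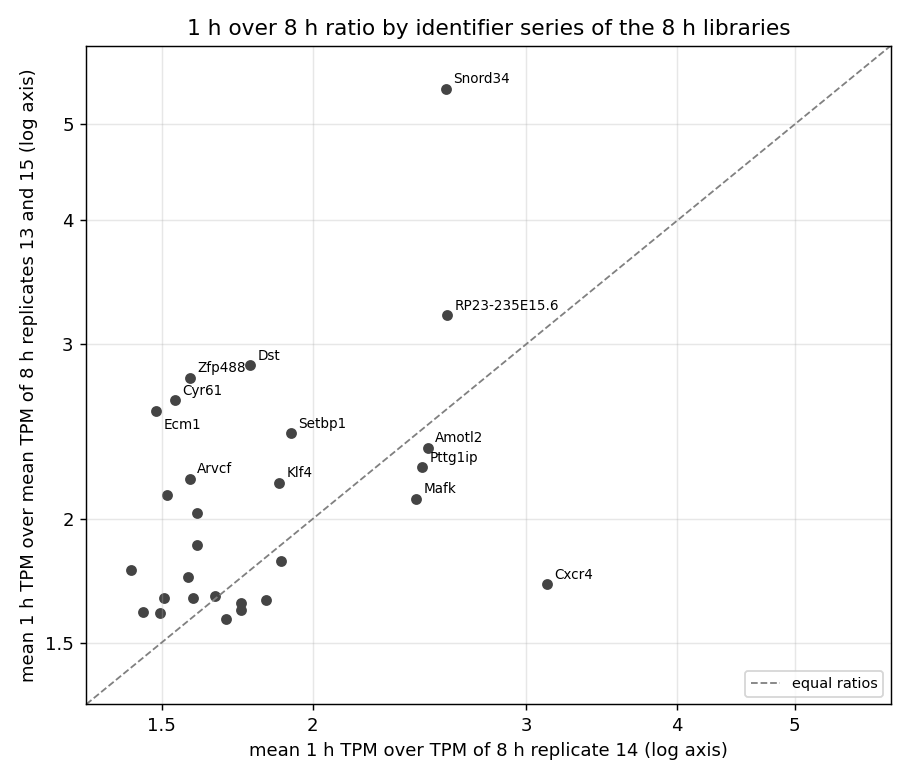
Mean 1 h TPM over the TPM of 8 h replicate 14 (horizontal) and over the mean TPM of 8 h replicates 13 and 15 (vertical) for each of the 28 genes, both on log axes, with the dashed line at equal ratios. Points run from 1.42 to 3.12 on the horizontal axis and from 1.58 to 5.43 on the vertical axis, with Cxcr4 far to the right of the line and Snord34 far above it.

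The count table gave a second view of the same libraries for 18 of the 28 genes, with counts scaled to the column total as CPM. Its columns did not all match the TPM tables of the same name. Relative to 1 h replicate 1, the column named for 8 h replicate 13 lay within 0.1 on the log2 scale of the TPM table of 8 h replicate 14 in 77.1% of 7425 genes. The column named for 8 h replicate 15 lay as close to the table of 8 h replicate 13 in 75.6%. The column named for 8 h replicate 14 did so for no table in more than 36.04%. In the 2 matched 8 h columns, 16 of the 18 genes were below both 1 h columns, against 17.2% of 6666 genes. The same libraries chose the genes, so nothing is read from this share. In all 3 8 h columns, 5 of the 18 were below both 1 h columns (Cyr61, Ecm1, Med13l, Setbp1 and Srsf5), against 7.29% of those genes. Nothing is read from that share either, since the matched columns are among the 3. The unmatched column was above both 1 h columns in 12 of the 18 genes and below both in 6.

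Counts and TPM parted in 2 genes. Stx6 had a CPM of 76.4 and 77.3 in the 1 h columns and of 84.2 and 83.8 in the matched 8 h columns and of 90.2 in the unmatched one. Pttg1ip had a CPM of 167 and 154 at 1 h and of 155 and 161 in those columns. In Stx6 the counts were thus higher in both matched 8 h columns, opposite to its TPM, and in Pttg1ip they overlapped; the reason was not tested. By contrast, Amotl2 had a CPM of 93.9 and 93.3 at 1 h and of 42.2 and 36.0 in the matched columns, a ratio of 2.39 that was near its TPM ratio of 2.40. Dll1 had a CPM of 138 and 147 at 1 h, 85.3 and 88.7 in the matched columns and 267 in the unmatched one, 1.87 times the 1 h mean. Cyr61 had a CPM of 55.8 and 50.5 at 1 h, 34.3 and 16.7 in the matched columns and 27.6 in the unmatched one, and was the 1 gene that met the ratio of 1.4 in all the columns. The 10 genes with no row among these counts were Ppp1r15a, Synpo, Zfp488, Cxcr4, Zbtb5, Sox21, Snord34, Armcx5, Dst and ENSMUSG00000106099.

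**Figure D3:**
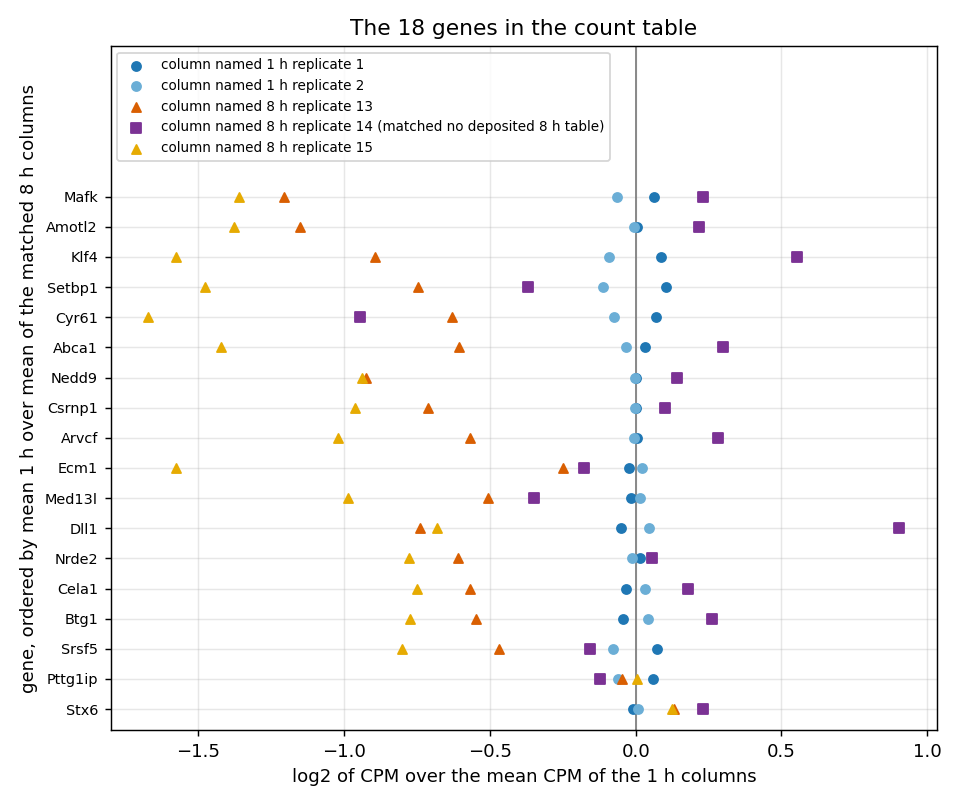
The log2 of CPM over the mean CPM of the 1 h columns for the 18 genes in the count table, with columns under their deposited names. The triangles of the 2 matched 8 h columns lie left of the 1 h circles in 16 genes, and the square of the unmatched column lies right of both circles in 12.

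Tests across all genes called none of the 28, of which the tests on counts covered only 18. The tests on counts also used the column named for 8 h replicate 14, which matched no TPM table. limma on log2(TPM + 1) called 4 of 13870 genes lower at 8 h (0.0288%) and 2 higher, where a call needed an adjusted p no larger than 0.05 together with a log2 fold change beyond 1 in size. None of the 28 was among the 4. At an unadjusted p under 0.05 it had 1712 genes, 391 of them lower, and all 28 genes were among these, from which nothing is read since the same values chose them. edgeR's quasi-likelihood test on the counts called 0 of 7590 genes in either direction, with 0 lower (0%) and 199 genes at an unadjusted p under 0.05. DESeq2 also called 0, with 227 genes at an unadjusted p under 0.05. Without 8 h replicate 14, limma called 573 of 13901 genes, 156 of them lower, and 12 of the 28 were among them. Nothing is read from these 12, since the same values chose the genes. That fit set the first series (1 h) against the second (8 h), which also differ in Xist and Y-linked genes. Time and series cannot be told apart in it.

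Of 23 gene lists drawn up for this tissue, 7 held at least 1 of the 28 genes and 16 held none, and 17 of the 28 genes were in no list. Lists with no member included those of the clock and its output, BMP and TGF-beta signalling, Wnt, Hedgehog, hypoxia, p53 targets, heat shock, and neural stem cell and proliferation genes. In the last of these, 0 of 20 measured genes were lower in every 8 h library, 3 were higher and 17 overlapped. Other lists with no member differed. The clock list had 6 of 18 lower and 3 higher, and the p53 list had 2 of 20 lower and 9 higher. Mitochondrially encoded genes, whose share of TPM split by series, had 13 of 25 lower and 0 higher. Over all genes, 8.82% were lower and 25.6% higher. limma called 0 of the genes counted in the lists, and Ctgf, left out by name, was among its 4 lower calls. The clock and BMP lists had lost genes by the rule on names, since Per1, Per2, Ciart, Id1 and Id4 met both thresholds and were left out.

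Relatives of the 28 genes by name were gathered after the genes were known. The 18 families with a relative above the floor of expression held 97 such relatives. Of these, 9 were lower in every 8 h library (9.28%), 21 were higher (21.6%) and 67 overlapped, against 8.82% lower and 25.6% higher over all genes. Amotl1 was at 52.1 and 47.2 TPM at 1 h and at 67.9, 56.9 and 69.9 TPM at 8 h, and so was higher in every 8 h library where Amotl2 was lower. Mafg and Maff overlapped where Mafk did not, as did Csrnp2, Ppp1r15b, Med13 and the second CXCL12 receptor Ackr3. Btg2 was higher in every 8 h library, at 77.8 and 81.0 TPM against 104, 95.3 and 99.3 TPM, where Btg1 was lower. Bcar1, the relative nearest to the rule, was at 32.5 and 34.97 TPM and then at 26.4, 26.0 and 23.1 TPM, lower as Nedd9 was. The differences between relatives were not tested.

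**Figure D4:**
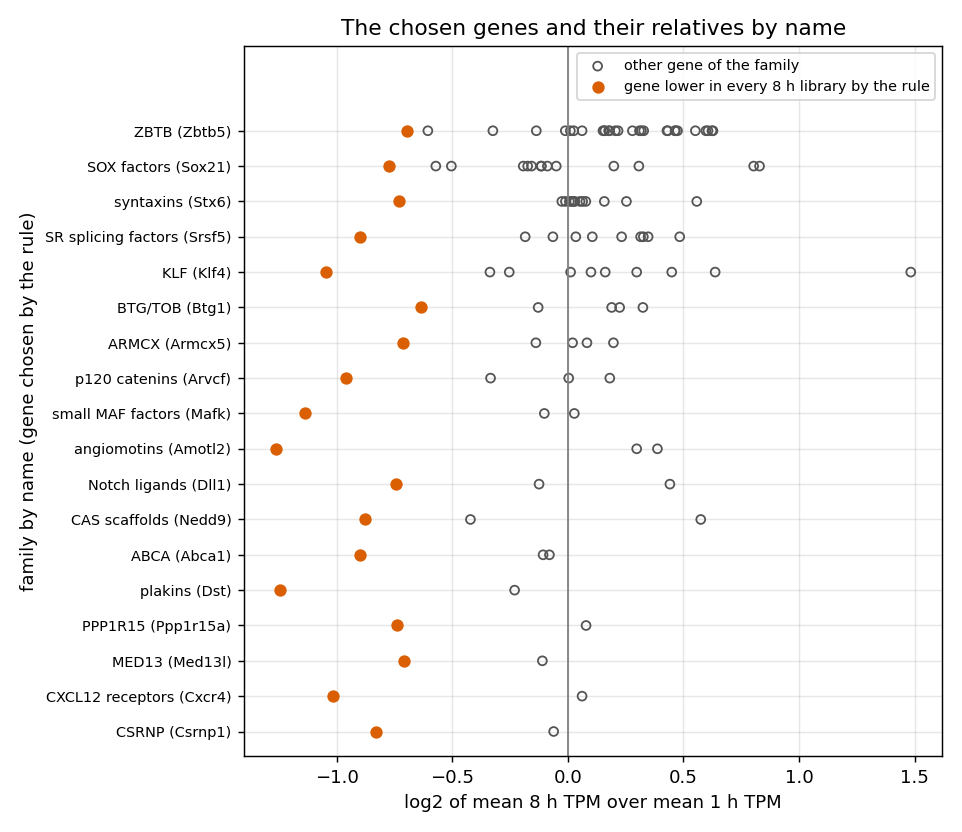
The log2 of mean 8 h TPM over mean 1 h TPM for the chosen genes (filled) and for other genes of the same family by name (open), in the 18 families with a relative. The filled points lie left of the open points of their family in each row; 9 of the 97 open points are genes lower in every 8 h library.

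The 28 genes were spread over 15 chromosomes, and 25 of them were protein-coding by GENCODE M21. Their median span was 11141 bases against 24833 over all genes measured, and they had a median of 5 exons against 9 in the longest transcript. The length of that transcript was similar, with a median of 3581 bases against 3228.5, and its median GC content was 52.7% against 49.97%. The 3′ untranslated region had a median of 1573 bases against 1225, and 84.0% of the 25 protein-coding genes had at least 1 AUUUA element in it, against 71.8% of measured genes with such a region. The element is known from short-lived mRNAs. Cyr61 had 5, Csrnp1 5, Ppp1r15a 4, Btg1 11 and Klf4 1, while Cela1, Ecm1, Nrde2 and Stx6 had 0. The stability of the mRNAs was not tested. Per kilobase the medians were 1.55 against 1.39. The genes were also less abundant than most, with a median mean TPM of 15.2 against 31.9. These figures are descriptions over genes, which are not independent of each other, and were not tested.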

How the data were processed

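RNA-seq of sham-exposed neural precursor cells was analysed from the deposited files. Libraries were stranded and poly-A selected. The authors aligned reads to GRCm38 with STAR and counted them with featureCounts, and deposited raw counts per gene for part of the genes (7599, described as filtered). Per library the authors also deposited TPM, FPKM and mean coverage per gene, in a layout like that of StringTie, with no version stated in the sources at hand. The submitters' processing notes also name bcl2fastq 2.19.1.403 and CASAVA. Every column was assigned to a library (0 others), and 0 rows lacked a gene identifier.

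TPM was summed per gene identifier (15 to 20 repeated rows per table). Members were found by the rule given in the text. The members and the gene lists were chosen with earlier results of these data known. Genes are named if they were in a list, had the largest ratio or the highest mean TPM, or stood next to the threshold. Relatives and genes outside that rule were named after their values were seen. Tests of 8 h against 1 h were limma 3.58.1 with a trend on log2(TPM + 1), where the mean TPM was 1 or more, and edgeR 4.0.16 (quasi-likelihood, TMM, filterByExpr) on counts in R 4.3.3, both with Benjamini-Hochberg adjustment. The limma fold changes understate changes of low genes. DESeq2 1.42.0 was an alternative. All fits were tested on simulated data. CPM is the count scaled to the column total. Count columns were compared with TPM tables over genes with at least 20 counts per column. Deposited FPKM served as an alternative to TPM, and coverage only for relative depth. Promoters came from RefSeq GRCm38.p6 by symbol or synonym, within 1000 bases of the deposited gene span; orientation was checked against GENCODE M21 transcripts (22 of 25 windows ran into one, 0 in reverse). Transcript properties came from GENCODE M21, with values for 27 of the 28 genes.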

Additional observations from a re-analysis of the deposited data

How the results depend on the processing

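No paired analysis was possible because the 1 h and 8 h groups share no replicate number. The count of genes lower in every 8 h library was 28. It was 106 at a ratio of 1.2, 3 at a ratio of 2, 75 at a mean TPM of at least 1, 44 after median-ratio scaling, 261 by the ratio of group means and 167 with the first identifier series alone. It was 1 with CPM from the count table and 18 with the 2 matched columns, an alternative added after seeing the data. Leaving out 1 library gave 39 (8 h replicate 13) to 242 genes (8 h replicate 14), with 61 and 78 for the 1 h replicates 1 and 2 and 43 for 8 h replicate 15. A floor of 10, FPKM and TPM + 1 gave 19, 38 and 24. All 28 genes were among those found by FPKM, by scaled TPM and in the first series, and 14 of the 18 genes of the matched columns were among the 28. Nothing is read from this. The first series is part of the libraries that the rule used, and FPKM rescales whole libraries. Median-ratio scaling divided TPM by 0.959 and 0.954 at 1 h and by 0.976 to 1.07 at 8 h, so it could only raise each ratio. limma called 6 genes, against 0 with no filter on low values, 1 at a mean TPM of at least 5, 19 with the identifier series as a term and 0 to 573 without 1 library. None of the 28 was called in any of these except without 8 h replicate 14. edgeR and DESeq2 called 0 genes under every alternative run. Of the 28 genes, 11 were in a list, against 23 genes at a ratio of 1.2 and 1 at a ratio of 2. As log2 of mean 8 h over mean 1 h, Stx6 reversed to 0.16 with CPM from all columns and 0.13 with the matched ones, and Dll1 to 0.045 with all columns. No value changed sign under the TPM and FPKM alternatives, from which nothing is read for the same reasons. With protein-coding genes as the comparison, 3.30% of windows held the AP-1 motif, 3.28% the cyclic AMP response element, 0.429% the D-box, 22.6% GGCGCC and 65.7% GGGCGG. The cause of these shifts was not tested. With 2 libraries against 3, and the second series present at 8 h only, time and series cannot be told apart for 8 h replicates 13 and 15.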
